A study of Homo sapiens with 12 samples.

Results

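The genes CD36, SEMA3C, HGF, SEMA3E, SEMA3A and SEMA3D lie in this order along the long arm of human chromosome 7, and this account covers the active chromatin called at them in 2 colorectal adenocarcinoma cell lines. The members were all regions of the 10 lists that fell within 50 kb of the hg19 intervals of the 6 genes, and 110 of the 262931 listed regions did so. SW620, labelled Dukes' type C, contributed 94 of them, and SW480, labelled Dukes' type B, contributed 16. SW620 comes from a lymph node metastasis and SW480 from the primary tumour of the same patient. Both lines were grown in DMEM with serum and were untreated, so by their labels the groups differed by line and by antibody. Differences between single libraries cannot be told apart from those of line. In each line, chromatin immunoprecipitation with sequencing (ChIP-seq) was done with antibodies to 4 histone marks (H3K36me3, H3K27ac, H3K4me3 and H3K4me2) and to the forkhead factor FOXA2, with 1 library per antibody and line. The lines were not checked against marker genes here.

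The intervals on chromosome 7 were 80231504 to 80308593 for CD36, 80371854 to 80548667 for SEMA3C and 81331444 to 81399452 for HGF. They were 82993222 to 83278479 for SEMA3E, 83587659 to 83824217 for SEMA3A and 84624869 to 84816171 for SEMA3D. CD36 is read from the forward strand, so its 5′ end is the lower coordinate, and the other 5 genes are read from the reverse strand. The genes were chosen by the measured excess of SW620 over SW480 in H3K4me2, H3K27ac and H3K36me3 regions along this stretch of the chromosome. The counts of these 3 marks are therefore a description of that choice, and the other antibodies share many sites with them. With 1 library per group there is no replicate check and no p-value. A region called in 1 list can fall just below the caller's threshold in the other.

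Class 3 semaphorins are secreted guidance proteins that bind neuropilins and signal through plexins, and they steer axons and vessels in development. SEMA3A was first known as a repellent of growing axons, SEMA3C guides cells of the heart outflow tract, SEMA3E can bind plexin D1 without a neuropilin, and SEMA3D also acts in the developing heart and vessels. HGF, hepatocyte growth factor, is a ligand made mainly by stromal cells and binds the receptor MET on epithelium. CD36 is a surface scavenger receptor that takes up long-chain fatty acids and binds thrombospondin. H3K4me3 marks promoters, H3K4me2 promoters and enhancers, H3K27ac active promoters and enhancers, and H3K36me3 the bodies of transcribed genes.

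The promoters of 5 of the genes, all but SEMA3A, differ in CpG content, and they are shown here because the 5′ ends that carried H3K4me3 and those that did not can be set beside them. The sequences are the 250 bases before a RefSeq transcript start on GRCh38.p14, read 5′ to 3′ along the gene, with CpG dinucleotides in capitals. Where RefSeq had several starts, the start was taken whose distance from the 3′ end of the gene came nearest to the length of the interval. RefSeq rows were found for 5 of the 6 genes, and SEMA3A is named only. The positions, on GRCh38.p14 and not to be set against the hg19 regions, are chr7:80919052-80919301 (reverse strand) for SEMA3C, chr7:85187057-85187306 (reverse) for SEMA3D, chr7:83649140-83649389 (reverse) for SEMA3E, chr7:81770048-81770297 (reverse) for HGF and chr7:80601957-80602206 (forward) for CD36.
SEMA3C: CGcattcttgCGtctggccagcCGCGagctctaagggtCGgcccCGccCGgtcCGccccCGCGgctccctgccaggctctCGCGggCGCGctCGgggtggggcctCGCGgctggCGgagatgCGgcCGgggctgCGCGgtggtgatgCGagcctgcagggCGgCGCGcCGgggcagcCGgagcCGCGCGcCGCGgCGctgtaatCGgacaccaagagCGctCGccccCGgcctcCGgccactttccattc
SEMA3D: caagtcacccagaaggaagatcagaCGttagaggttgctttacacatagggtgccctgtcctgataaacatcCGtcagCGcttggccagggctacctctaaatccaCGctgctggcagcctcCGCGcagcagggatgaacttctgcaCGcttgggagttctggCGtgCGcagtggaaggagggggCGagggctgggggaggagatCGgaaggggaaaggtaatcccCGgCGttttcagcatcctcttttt
SEMA3E: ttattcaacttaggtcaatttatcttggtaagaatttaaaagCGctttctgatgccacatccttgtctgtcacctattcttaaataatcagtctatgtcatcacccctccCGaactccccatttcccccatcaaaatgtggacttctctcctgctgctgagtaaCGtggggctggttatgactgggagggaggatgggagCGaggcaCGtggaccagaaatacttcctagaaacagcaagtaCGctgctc
HGF: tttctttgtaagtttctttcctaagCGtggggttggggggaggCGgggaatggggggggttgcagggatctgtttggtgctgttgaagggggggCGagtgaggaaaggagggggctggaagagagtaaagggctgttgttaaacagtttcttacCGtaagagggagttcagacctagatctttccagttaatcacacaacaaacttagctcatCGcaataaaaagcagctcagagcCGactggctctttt
CD36: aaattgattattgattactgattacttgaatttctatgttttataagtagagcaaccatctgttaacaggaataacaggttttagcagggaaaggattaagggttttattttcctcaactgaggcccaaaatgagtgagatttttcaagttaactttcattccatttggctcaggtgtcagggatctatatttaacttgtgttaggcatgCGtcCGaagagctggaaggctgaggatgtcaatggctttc

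With the 50 bases after the start included, the SEMA3C promoter held 46 CpG dinucleotides and was 75.7% G or C. Of 34796 RefSeq promoters of this length, 97.1% held fewer CpG. The SEMA3D promoter held 14 CpG, which is the median of all promoters, and was 57.0% G or C. HGF held 7 and SEMA3E 6 CpG, and 36.9% and 33.8% of promoters held fewer. CD36 held 2 and was 38.7% G or C. The forkhead motifs TGTTTAC and TGTTTGC were searched on both strands, and neither contains the other. TGTTTAC matched once in the SEMA3E promoter, in the bases after the start, and neither motif matched in the other 4. They occurred in 3.42% and 3.88% of all promoters.

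SEMA3A held most of what was called. Its window had 76 regions in SW620 and 9 in SW480. The windows of the other 5 genes had 2 to 4 regions each in SW620 and 0 to 3 each in SW480. For H3K36me3, 43 of the 45 SW620 regions lay at SEMA3A and SW480 had 0 in all 6 windows. For H3K27ac, 18 of 21 SW620 regions and 4 of 4 SW480 regions lay there. For H3K4me2 the window of SEMA3A held 6 of 10 SW620 and 2 of 4 SW480 regions, for H3K4me3 4 of 5 and 2 of 3, and for FOXA2 5 of 13 and 1 of 5.

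**Figure D1:**
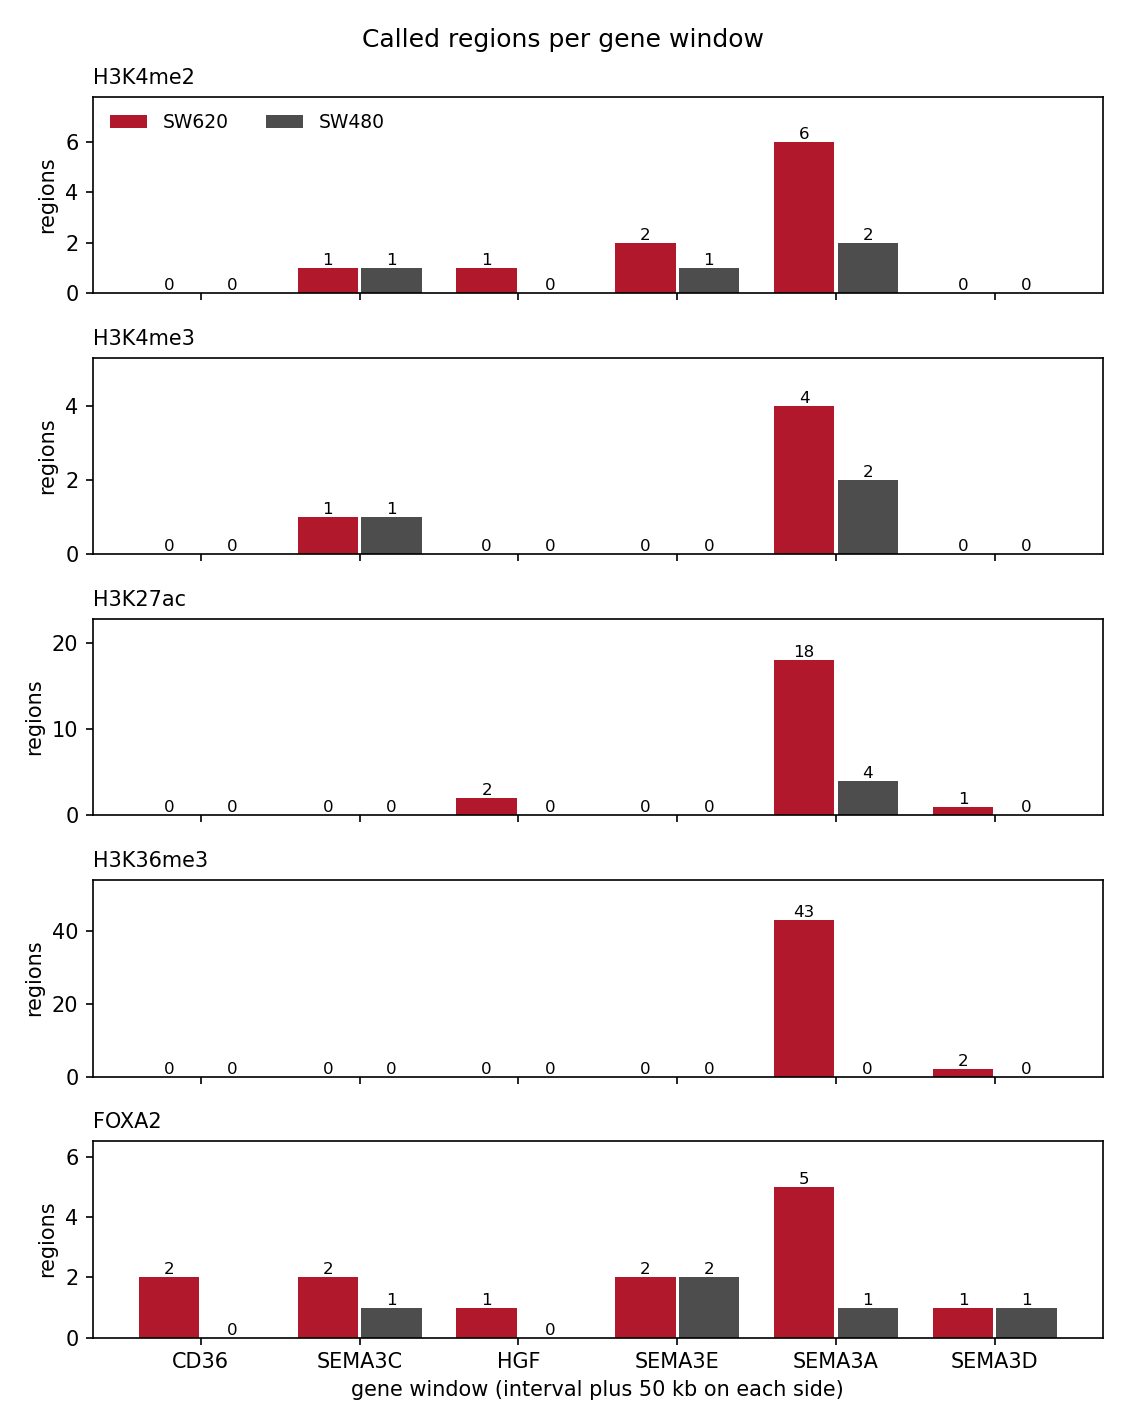
Number of called regions per gene window (interval plus 50 kb on each side) for each antibody, with SW620 in red and SW480 in grey, 1 library per bar. The tallest bars stand at SEMA3A, with 43 H3K36me3 regions in SW620 and 0 in SW480 and 18 H3K27ac regions in SW620 and 4 in SW480.

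Every SW480 histone region in the windows overlapped an SW620 region of the same mark by at least 1 bp, while SW620 had further regions of its own. This held for all 11 SW480 regions, made up of 4 H3K4me2, 3 H3K4me3 and 4 H3K27ac regions. With an overlap of 50% of both regions required, 25% of the SW480 H3K4me2 and 75% of the SW480 H3K27ac regions had no SW620 counterpart. In the whole SW480 lists, 23.2% of H3K4me2, 17.1% of H3K4me3 and 32.0% of H3K27ac regions had no SW620 counterpart. In SW620, 6 of 10 H3K4me2 regions were without an SW480 counterpart, against 30.2% of the list, and 18 of 21 H3K27ac regions, against 26.8%. All 45 H3K36me3 regions were, against 27.9%, and SW480 had no H3K36me3 region here, where 34.3% of its list lacked an SW620 counterpart. These 3 marks chose the genes, so nothing is read from their shares.

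For H3K4me3, 2 of 5 SW620 regions were without an SW480 counterpart, against 6.85% of the list. The exact 95% binomial interval of that share, which covers counting error only, runs from 5.27% to 85.3%. It treats the regions as independent draws, although 4 of the 5 lay at SEMA3A. Both of the regions without a counterpart lay on SW620 H3K27ac, which took part in the choice of the genes. Nothing is therefore read from this share. For FOXA2, 12 of 13 SW620 peaks and 4 of 5 SW480 peaks had none, against 98.1% of the SW620 list and 95.5% of the SW480 list. The exact intervals of these shares run from 64.0% to 99.8% in SW620 and from 28.4% to 99.5% in SW480. They too treat the peaks as independent draws and are no test against the lists.

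Depth did not run one way over the 5 antibodies, but the 3 marks that chose the genes all had more tags in SW620. The H3K36me3 libraries had 46006580 tags in SW620 and 37446361 in SW480, and the H3K27ac libraries 47867295 and 34224728. The H3K4me2 libraries had 23671100 tags in SW620 and 20958795 in SW480. For H3K4me3 the order was the opposite, with 12791745 tags in SW620 and 16400013 in SW480, and FOXA2 had 18036456 and 19473583. Of the H3K27ac tags, 27.5% in SW620 and 58.5% in SW480 lay in called regions. Of the FOXA2 tags, 2.25% in SW620 and 0.59% in SW480 did, in 12372 and 5207 peaks. A FOXA2 peak called in SW620 alone can thus go with the smaller SW480 share of tags in peaks. The part that depth, the share of tags in regions or the copy number of this stretch has in the counts was not tested.

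The 5′ ends were described next. Of the 6 genes, 2 had H3K4me3 within 2 kb of the 5′ end, SEMA3C and SEMA3A, and both had it in SW620 and in SW480. H3K4me2 lay within 2 kb at 3 genes, SEMA3C, SEMA3E and SEMA3A, again in both lines. H3K27ac lay there at SEMA3A alone among the 6, in both lines. CD36, HGF and SEMA3D had no histone region within 2 kb of the 5′ end of the interval in either line. An H3K4me3 region further upstream of SEMA3D is described below.

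**Figure D2:**
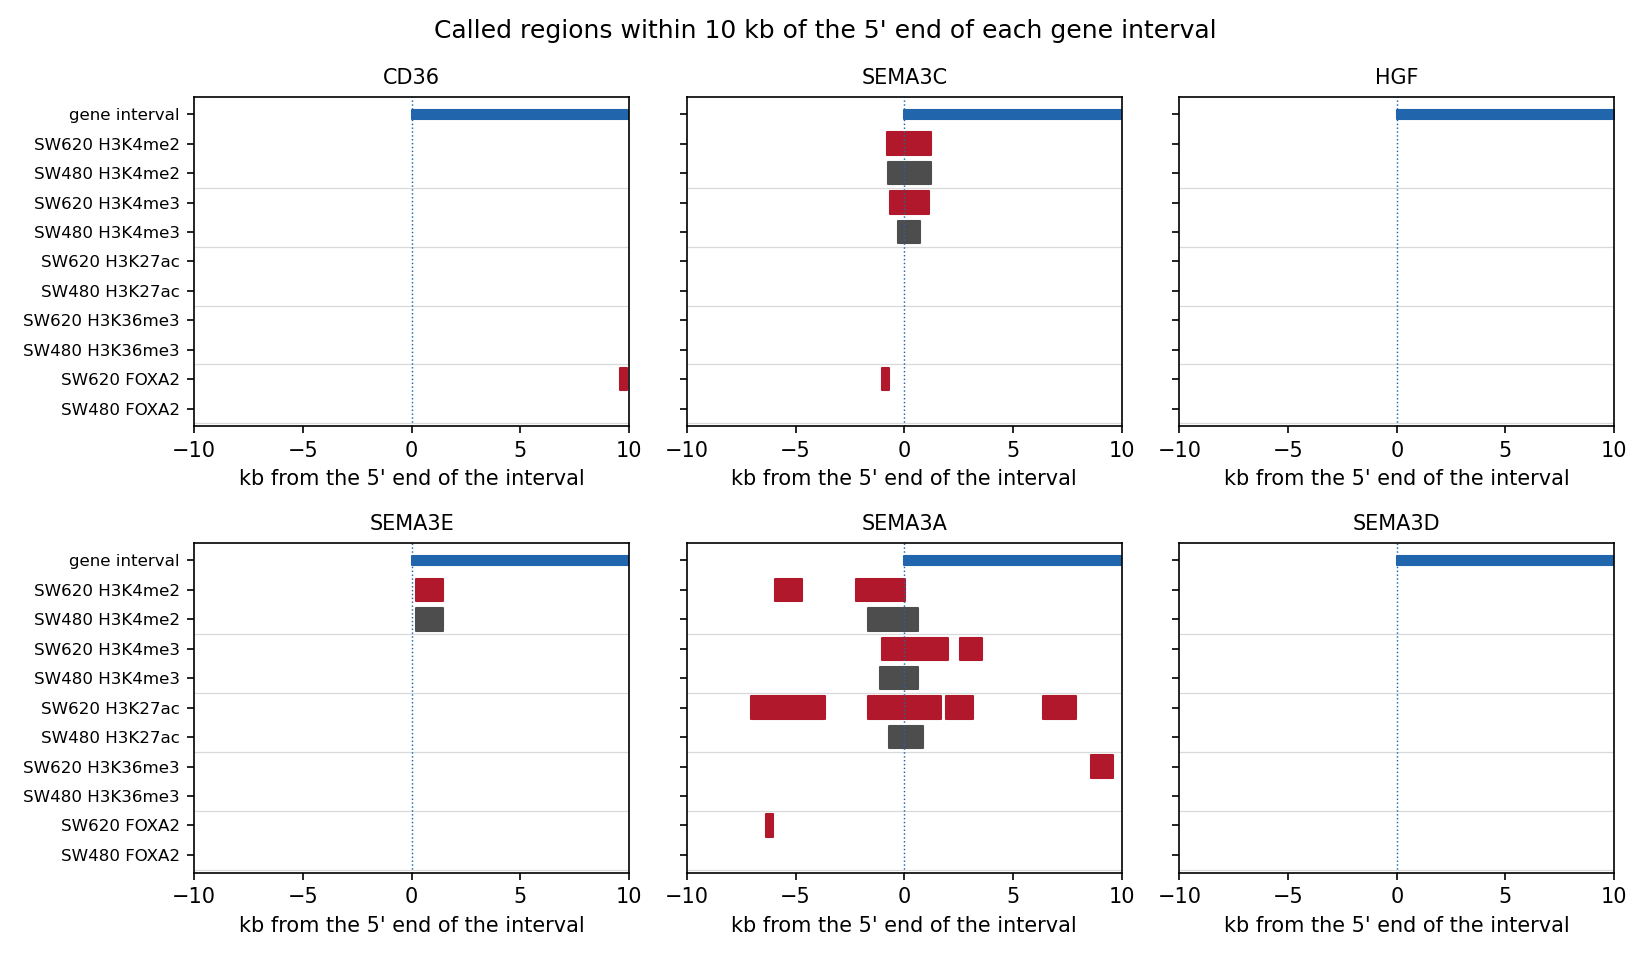
Called regions within 10 kb of the 5′ end of each of the 6 gene intervals, with the distance in kb on the horizontal axis (positive into the gene) and 1 row per list, SW620 in red above SW480 in grey. SEMA3C and SEMA3A carry H3K4me2 and H3K4me3 at the 5′ end in both lines, SEMA3E carries H3K4me2 in both, and CD36, HGF and SEMA3D carry no histone region there in either.

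At SEMA3C the marks of the lines nearly coincided. The H3K4me2 region over the 5′ end ran from 80547433 to 80549439 in SW620 and from 80547414 to 80549424 in SW480, with 1992 bp in common. The H3K4me3 region was 1.78 kb wide in SW620 (80547523 to 80549301) and 1.00 kb in SW480 (80547963 to 80548963), and the SW480 region lay wholly inside that of SW620. No H3K27ac and no H3K36me3 region was called anywhere in the SEMA3C window in either line. The 5′ end of SEMA3C, the gene with the most CpG of the 5 promoters shown, thus had both H3K4 marks and no called H3K27ac.

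The FOXA2 peaks called at SEMA3C lay at different positions in the lines, as most peaks of the lists did. Of the whole lists, 98.1% of SW620 and 95.5% of SW480 peaks had no counterpart in the other line. SW620 had a peak at 80549369 to 80549687, 702 bp upstream of the 5′ end, which touched the H3K4me2 region of that line. A second SW620 peak, at 80489946 to 80490264, lay 58.4 kb inside the gene on no histone region. SW480 had 1 peak, at 80534513 to 80534639, 14.0 kb inside the gene and also on no histone region.

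SEMA3E had H3K4me2 as its only histone mark. The region just inside the 5′ end ran from 83277049 to 83278299 in SW620 and from 83277045 to 83278295 in SW480, so both were 1251 bp wide and 1247 bp were common to them. SW620 had a further H3K4me2 region of 1.00 kb, 19.4 kb into the gene, with no SW480 counterpart. Both lines had 2 FOXA2 peaks in the window, none of them shared and none on a histone region. In SW620 they lay 101 kb inside the gene and 27983 bp upstream of it, and in SW480 55.9 kb inside the gene and 2814 bp beyond its 3′ end.

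At HGF, the ligand of MET, the regions lay at the 3′ end and were called in SW620 alone. An H3K27ac region of 1.00 kb (81314441 to 81315441), an H3K4me2 region of 1.00 kb (81314300 to 81315300) and a FOXA2 peak (81314289 to 81314607) overlapped each other beyond the 3′ end of the interval, from which the H3K27ac region lay 16003 bp away. These H3K27ac and H3K4me2 regions had the caller's smallest width and were numbers 21763 of 22236 and 30886 of 35114 in list order. A second H3K27ac region, 1.26 kb wide (81333177 to 81334431) and number 20127, lay inside the gene, 65.0 kb from the 5′ end. SW480 had no region of any antibody in the HGF window.

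CD36 had no histone region in either line. SW620 had 2 FOXA2 peaks inside the gene, at 80241103 to 80241421 and 80295710 to 80296028, which are 9.60 and 64.2 kb from the 5′ end, and SW480 had none. The first was number 4769 and the second number 851 of the 12372 peaks in list order. What sets the order of the lists is not stated in the files.

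SEMA3D had 3 histone regions in its window, all in SW620. An H3K27ac region of 2.86 kb spanned 84653870 to 84656724, a width that 27.1% of the SW620 list reached. It lay 159 kb into the gene, and a FOXA2 peak of SW620 (84656965 to 84657283) began just past its edge without overlapping it. The 2 H3K36me3 regions, at 84640034 to 84641034 and 84862823 to 84863823, had the caller's smallest width. They were numbers 44599 and 44600 of 45466 in list order. SW480 had 1 FOXA2 peak, 22404 bp beyond the 3′ end of the interval.

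SEMA3A was marked at its 5′ end in both lines, and more widely in SW620. The H3K4me3 region over the end was 3.01 kb wide in SW620 (83822219 to 83825229) and 1.77 kb in SW480 (83823570 to 83825334), a ratio of 1.71. The H3K27ac region there was 3.35 kb wide in SW620 (83822546 to 83825896) and 1.55 kb in SW480 (83823372 to 83824918), a ratio of 2.17. Set against their own lists, 17.3% of SW620 and 79.3% of SW480 H3K27ac regions were at least as wide. The H3K4me2 regions had nearly the same width, 2.28 kb in SW620 and 2.29 kb in SW480, but began at 83824165 in SW620 and at 83823576 in SW480. SW620 H3K4me2 therefore reached only just past the 5′ end into the gene, where H3K4me3 and H3K27ac of that line extended further.

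Next to the SEMA3A start, SW620 had regions that SW480 did not. An H3K4me3 region of 1.00 kb lay 2.58 kb into the gene, and H3K27ac regions lay 1.91 and 6.39 kb into it. The H3K4me3 region had the caller's smallest width and was number 16311 of 16315 in list order. Upstream, an H3K27ac region of 3.42 kb (83827871 to 83831287) began 3654 bp from the 5′ end, overlapped an H3K4me2 region of 1.27 kb, and held a FOXA2 peak at 83830257 to 83830575. A last H3K27ac region in the flank lay 36080 bp upstream.

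**Figure D3:**
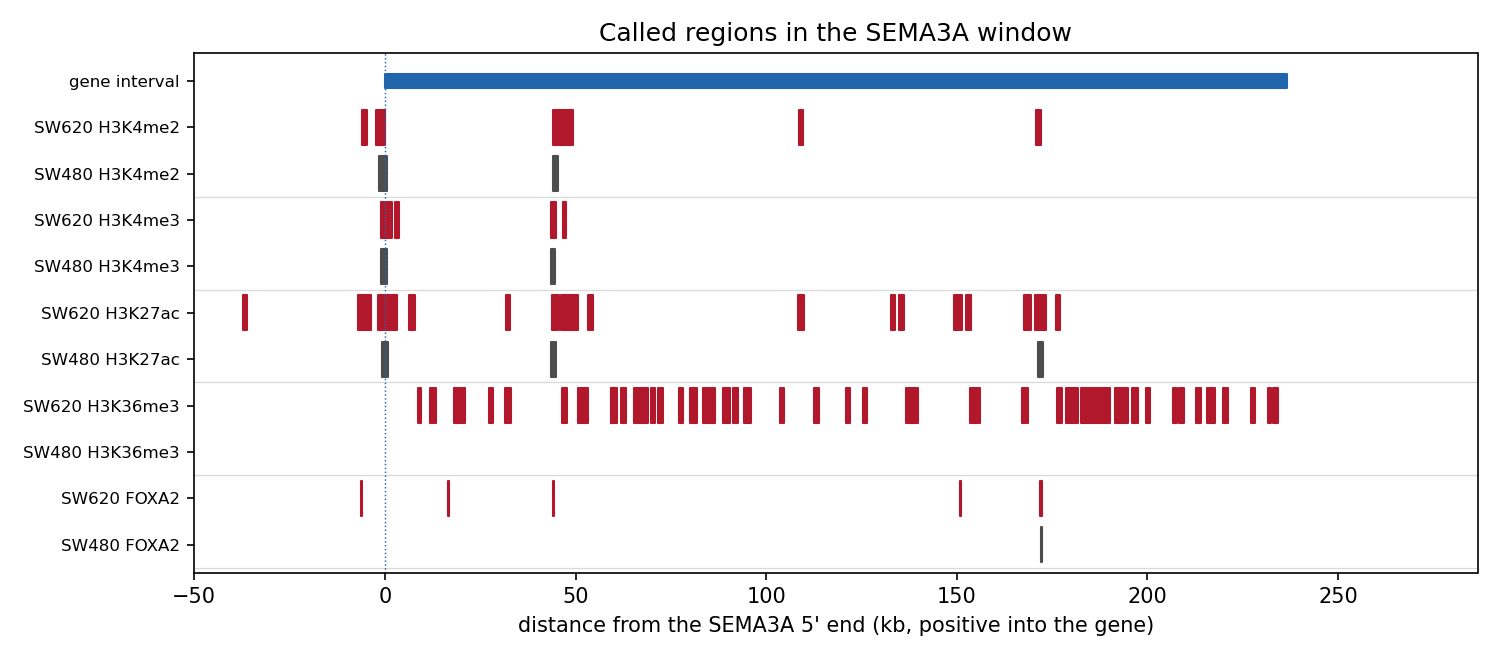
Called regions in the SEMA3A window against the distance from the 5′ end in kb (positive into the gene), with 1 row per list, SW620 in red above SW480 in grey, and the gene interval in blue. H3K36me3 of SW620 spans the gene interval and none lies outside it, SW480 has none, and the sites marked in both lines stand at the 5′ end and at about 44 and 172 kb into the gene.

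H3K36me3 followed the SEMA3A interval in SW620. All 43 regions lay inside the interval and 0 in its flanks. The one nearest the 5′ end began 8.60 kb into the gene, and the last ended 2.28 kb short of the 3′ end. Merged, they made 40 blocks with a median gap of 2.26 kb and a widest gap of 13.5 kb, and they covered 71.1 kb, or 30.1% of the interval. SW480 H3K36me3 covered 0 kb. H3K27ac covered 26.0 kb of the interval in SW620 and 3.51 kb in SW480. H3K4me2 covered 3.07% of it in SW620 and 0.80% in SW480, and H3K4me3 2.25% and 0.70%. The nearest H3K36me3 region outside the gene was 816 kb away upstream and 3736 kb away downstream in SW620, and 2961 and 3746 kb away in SW480.

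The H3K36me3 coverage of SW620 varied along the gene. Divided into 10 equal parts from 5′ to 3′, the interval was covered to between 10.7% in the part numbered 7 and 53.5% in the part numbered 8. The widest region, 7.58 kb from 83634113 to 83641687, began 183 kb into the gene in part 8 and ended just inside part 9, and 7.19% of the SW620 H3K36me3 list was at least as wide. The last part was covered to 31.4% and the first to 23.0%. Of the 43 regions, 5 overlapped H3K27ac, 1 overlapped H3K4me2 and 1 H3K4me3 of the same line, and 0 overlapped FOXA2. In the whole SW620 H3K36me3 list, 7.28% overlapped H3K27ac, 9.37% H3K4me2, 3.6% H3K4me3 and 0.893% FOXA2. No test was made of these small counts.

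**Figure D4:**
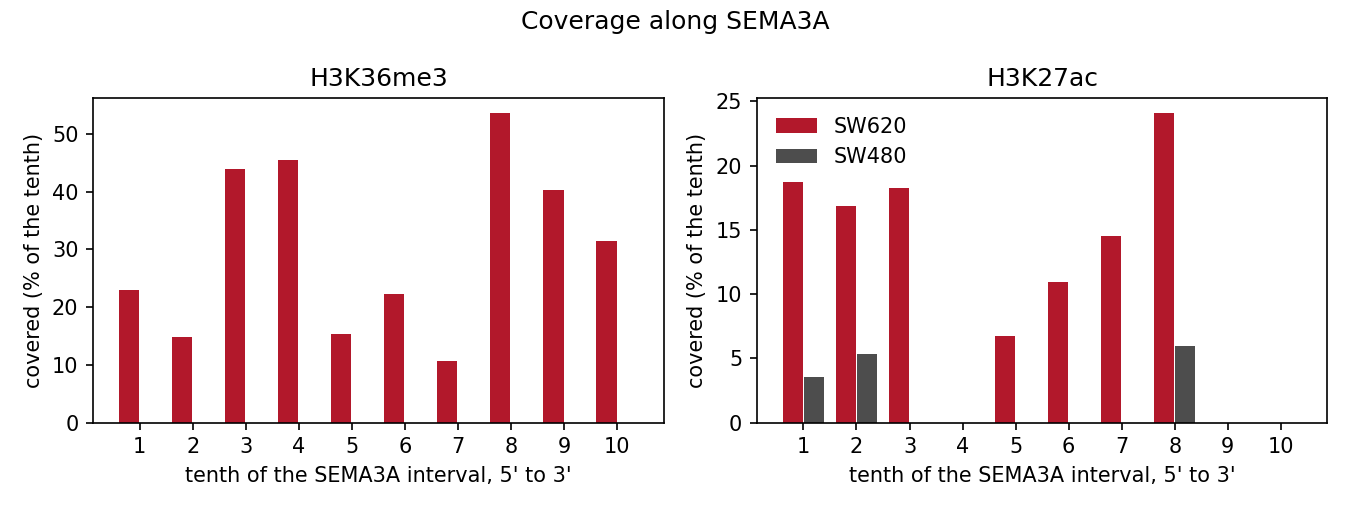
Percent of each of 10 equal parts of the SEMA3A interval, from 5′ to 3′, covered by H3K36me3 (left) and H3K27ac (right), with SW620 in red and SW480 in grey, 1 library per bar. SW620 H3K36me3 covers each part, from 10.7% to 53.5%, and SW480 none, while SW480 H3K27ac reaches parts 1, 2 and 8.

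Inside SEMA3A, 2 further sites were marked in both lines. The first lay about 44 kb into the gene. SW620 had an H3K4me2 region of 3.68 kb there (83776377 to 83780051), H3K4me3 regions of 1.32 and 1.00 kb, H3K27ac regions of 1.94 and 1.67 kb and a FOXA2 peak at 83779780 to 83780098. SW480 had H3K4me2 of 1251 bp (83778774 to 83780024), H3K4me3 of 1.00 kb and H3K27ac of 1.26 kb, and no FOXA2 peak. The site carried the promoter mark in both lines although it lies within the interval and not at its 5′ end.

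The second site lay about 172 kb into the gene and was the one FOXA2 position called in both lines in the 6 windows. The SW620 peak ran from 83651956 to 83652274 and the SW480 peak from 83651986 to 83652112, which lay wholly inside it. In list order it was number 80 of 12372 in SW620 and number 4718 of 5207 in SW480. In SW620 it lay on an H3K27ac region of 2.93 kb (83650898 to 83653826) and on H3K4me2 of 1.26 kb. In SW480 it lay on 2 overlapping H3K27ac regions of 1.00 kb each (83651529 to 83652529 and 83651930 to 83652930) and on no H3K4me2. Neither line had H3K4me3 there.

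The other FOXA2 peaks at SEMA3A were in SW620. The peak at 83673034 to 83673352 lay on an H3K27ac region of 2.17 kb, 151 kb into the gene. The peak at 83807286 to 83807604, 16.6 kb into the gene, lay on no histone region. With the upstream peak and those of the 44 and 172 kb sites, 4 of the 5 SW620 peaks at SEMA3A were on H3K27ac. In the whole SW620 FOXA2 list, 33.9% of peaks were. As H3K27ac took part in the choice of the genes, nothing is read from this count.

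Candidate enhancers were taken as H3K27ac regions without H3K4me3 of the same line. Of the 18 SW620 H3K27ac regions at SEMA3A, 14 were without H3K4me3 and 13 of those were also without SW480 H3K27ac. Of the 14, 10 also overlapped no H3K4me2, so most lacked the other mark of enhancers. In the whole lists, 59.8% of SW620 H3K27ac regions without H3K4me3 had no SW480 counterpart, and 58.9% of such SW480 regions had no SW620 counterpart. As H3K27ac took part in the choice of the genes, nothing is read from the difference. Over the 6 windows 17 of 21 SW620 regions and 2 of 4 SW480 regions were without H3K4me3, against 40.1% of the SW620 list and 33.0% of the SW480 list. H3K4me2 overlapped 8 of 21 SW620 regions and 2 of 4 SW480 regions, against 91.3% and 92.3% of the lists. H3K4me2 and H3K27ac both took part in the choice of the genes, so nothing is read from these counts either. H3K4me3 overlapped 4 of 21 and 2 of 4, against 59.9% and 67.0%, and H3K36me3 5 of 21 and 0 of 4, against 14.5% and 14.8%. FOXA2 overlapped 5 of 21 SW620 and 2 of 4 SW480 regions, against 17.6% and 0.966%, and the 2 SW480 regions share the single peak at 172 kb. The H3K27ac regions of the windows were narrow, with a median of 1513 bp in SW620 and 1131 bp in SW480, where the list medians were 2205 and 2377 bp. How much of the lower overlap with H3K4me2 and H3K4me3 goes with width was not tested.

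FOXA2 peaks over the 6 windows were also set against the whole lists. In SW620, 5 of 13 lay on H3K27ac, against 33.9% of the list, 4 on H3K4me2, against 51.7%, and 1 on H3K4me3, against 13.1%. On none of these 3 marks lay 7 of 13 SW620 peaks and 4 of 5 SW480 peaks, against 44.9% and 93.2% of the lists. SW620 had 0 of 13 on H3K36me3, against 3.31%. SW480 had 1 of 5 on H3K27ac, against 4.47%, and 0 of 5 on H3K4me2, H3K4me3 and H3K36me3, against 5.61%, 2.19% and 2.63%. No test was made of these small counts.

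Called regions were also present beyond the flanks on the 5′ side of SEMA3D and SEMA3A, whose RefSeq lengths exceed their intervals by far more than those of the other genes. RefSeq on GRCh38.p14 gives SEMA3D a length of 255 kb and SEMA3A a length of 537 kb, where the hg19 intervals used here are 191 and 237 kb long. No position was carried between the builds, and it was not checked that the 3′ ends coincide. Which end of the gene models differs was therefore not established by position. Within GRCh38.p14, the SEMA3D start shown above lies 191.5 kb from the 3′ end of the gene, close to the length of the hg19 interval. The printed SEMA3D promoter is thus inside the 255 kb RefSeq gene and not at its 5′ end. Counted from the 3′ end of the hg19 interval, an H3K4me3 region was called 254 to 255 kb away from that of SEMA3D in both lines, from 84879073 to 84880337 in SW620 and from 84879206 to 84880206 in SW480. In SW620 it overlapped H3K4me2, H3K27ac and a FOXA2 peak (84879464 to 84879782), and in SW480 it overlapped none of the other marks. It lay 62.9 kb upstream of the interval in SW620, just outside the 50 kb flank, whereas the outermost region inside a flank, the H3K36me3 region at 84862823, lay 46652 bp upstream.

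Far upstream of SEMA3A, an H3K4me3 region was called in SW620 alone. It ran from 84121334 to 84122334, which is 534 to 535 kb from the 3′ end of the interval, and overlapped an H3K27ac region. This region stopped short of the RefSeq length of 537 kb, whereas that of SEMA3D spanned the RefSeq length of 254.7 kb. From the flank of SEMA3A up to that site, the site included, SW620 had 5 H3K4me2 and 7 H3K27ac regions and 2 FOXA2 peaks, while SW480 had 0 of each. The nearest of them, an H3K27ac region of 1.86 kb at 83877017 to 83878871, lay 52.8 kb upstream of the interval. No H3K36me3 region was called in this stretch in either line.

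The stretches between the windows were compared last. In the RefSeq gene order, CACNA2D1 and PCLO are the protein-coding genes between HGF and SEMA3E. There SW620 had 5 H3K4me2, 3 H3K4me3, 3 H3K27ac and 0 H3K36me3 regions and SW480 had 4, 2, 1 and 0 in the same order. Between SEMA3C and HGF, SW620 had 3 H3K27ac regions and SW480 had 0. Between SEMA3E and SEMA3A there were 2 H3K4me2 regions in SW620 and 0 in SW480, and no H3K27ac in either line.

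In bins of 500 kb along the chromosome, the bin of SEMA3A held 22 H3K27ac regions in SW620 and 4 in SW480, and 43 and 0 H3K36me3 regions. From 80 to 83.5 Mb no H3K36me3 region was called in either line. In the bin from 86.5 to 87 Mb the lines were close again, with 14 H3K36me3 and 4 H3K27ac regions in SW620 and 15 and 5 in SW480. The bin from 79.5 to 80 Mb, before CD36, held 10 H3K27ac, 7 H3K36me3 and 9 FOXA2 regions in SW620, against 2, 3 and 0 in SW480.

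**Figure D5:**
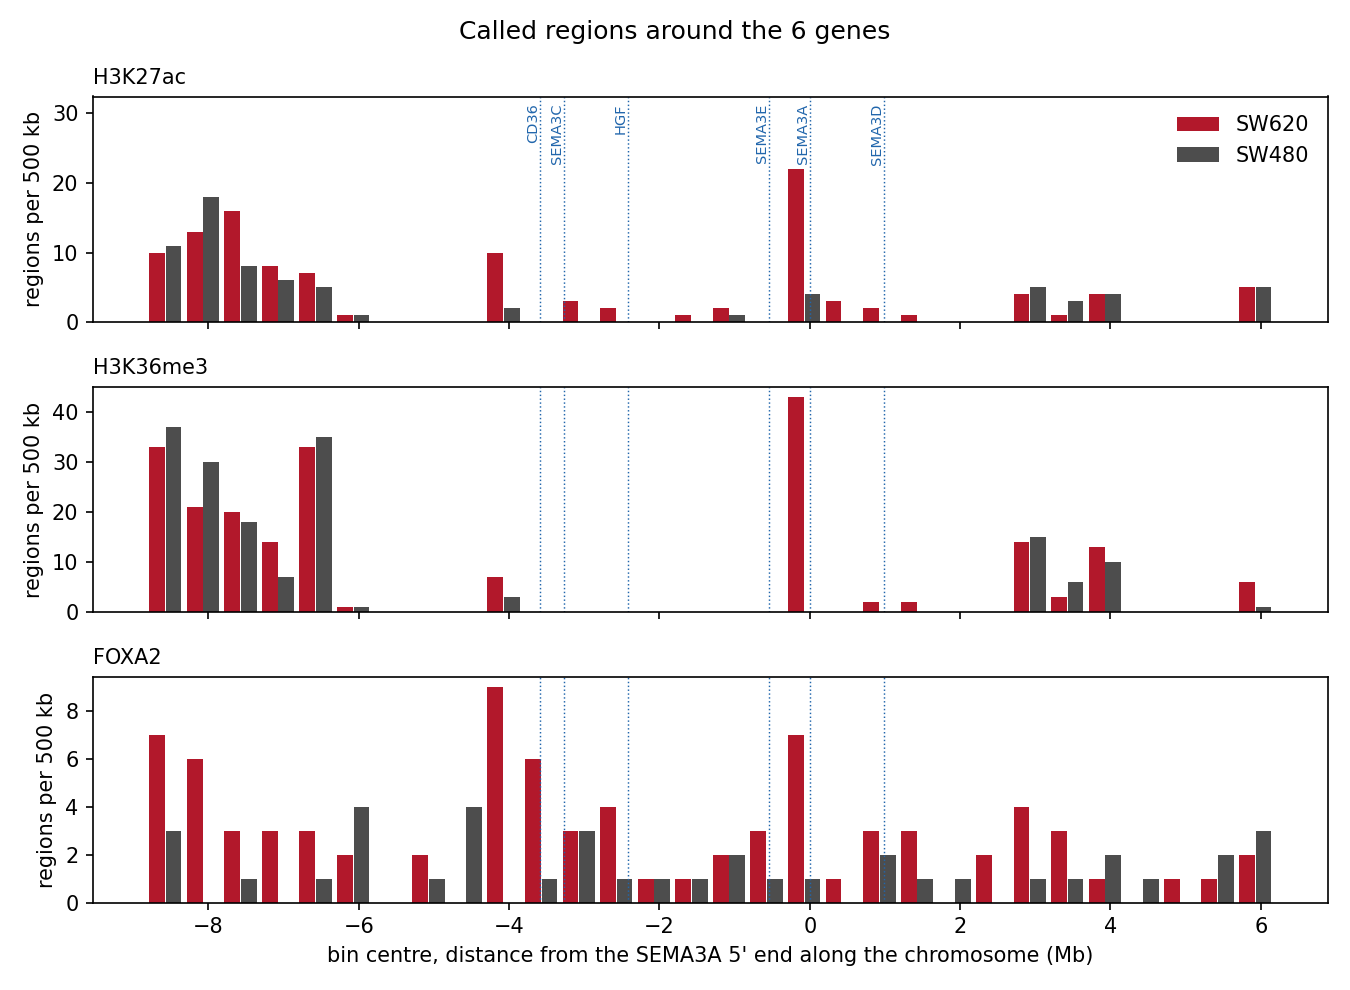
Number of H3K27ac, H3K36me3 and FOXA2 regions per 500 kb bin along chromosome 7, against the distance of the bin centre from the SEMA3A 5′ end in Mb, with SW620 in red left of SW480 in grey and dotted lines at the 5′ ends of the 6 genes. The bin of SEMA3A stands out with 43 H3K36me3 regions in SW620 and 0 in SW480, and the bin before CD36 has 10 H3K27ac regions in SW620 and 2 in SW480.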

How the data were processed

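The 12 samples comprised 5 antibodies and an input in each of 2 lines, 1 library per group, grouped by title. Per the file headers, the authors called regions per library against the input of the same line with HOMER findPeaks. Marks used the histone style (size 1000 bp, F 4, L 4, false discovery rate 0.001, nfr) and FOXA2 the factor style (F 2, L 2, same rate, centred). The submitters' processing notes name hg19, and the aligner and HOMER version are not given here. The deposited score was 1 in every row and was not used, so the data are positions in bp. Total tags per library were 12791745 to 47867295, per the file headers.

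Positions were counted from 1, and an overlap of 1 bp made a region shared. Overlaps (Python 3.11.15, numpy 2.4.6, pandas 2.3.3) were tested on simulated data and checked against bedtools 2.31.1. Binomial intervals used scipy 1.17.1 and figures matplotlib 3.10.9. The members and lists were chosen with earlier results of these data known. The rule named all 6 genes, regions within 2 kb of 5′ ends, the widest H3K27ac and H3K36me3 regions, all H3K4me3 regions and all FOXA2 peaks. Other regions, the upstream sites and the H3K36me3 runs were named after their values were seen. Receptors, partners and genes of like pattern were not analysed here, as no hg19 annotation was used. Alternatives covered the flank, overlap, region width, list length and 5′ window.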

Additional observations from a re-analysis of the deposited data

How the results depend on the processing

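Of 111 alternative values for 37 results, 89 stayed within the tolerance and 22 moved past it. The tolerance was 1.5 times for a count or a covered share, and the exact 95% interval of the reported value for a share without a counterpart, which is wide at these counts. Most of these came from keeping histone regions of at least 2 kb alone, since the regions here are narrow. The windows then held 3 SW620 and 2 SW480 H3K4me2 regions, 1 and 0 H3K4me3, 6 and 0 H3K27ac, and 7 SW620 H3K36me3 regions. The covered part of SEMA3A became 1.58% in SW620 and 0.27% in SW480 for H3K4me2, 0.85% and 0% for H3K4me3, 3.88% and 0% for H3K27ac, and 10.6% for SW620 H3K36me3. With equal numbers of first-listed FOXA2 peaks the windows held 7 SW620 peaks, and without flanks 3 SW480 peaks. Counting SW480 regions within 5 kb as shared left 0% of SW620 H3K4me3 and 57.1% of SW620 H3K27ac regions without a counterpart. Requiring an overlap of 50% of both regions left 25% of SW480 H3K4me2 (0% as reported, within the tolerance), 75% of SW480 H3K27ac regions and 100% of FOXA2 peaks in SW620 and 100% in SW480 without one, and the FOXA2 peaks of the lines differ in width by construction. Within 500 bp of the 5′ end 0 genes had an SW620 FOXA2 peak. Merging overlapping regions, chosen after seeing the data, moved no count by over 1.5 times. No paired analysis was possible because each group has 1 library. Depth limits what an uncalled region means: it may lie below the threshold.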

Other observations

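H3K36me3 regions were also joined into runs wherever neighbours lay within 20 kb, a step chosen after the data were seen. SW620 had 336 runs of 20 or more regions, of which 9 held no SW480 H3K36me3 region, and SW480 had 521, of which 11 held no SW620 region. The SEMA3A run, with 43 regions over 226 kb, had the most regions of the 9. The next, with 28 regions each, lay on chromosome 4 from 15970395 to 16079989, on chromosome 12 from 26680864 to 26869206 and on chromosome 6 from 168909516 to 169066497. Within 5 kb of these 3, SW620 had 2, 0 and 2 H3K27ac regions and SW480 had 1, 0 and 0, whereas the SEMA3A run had 14 in SW620 and 3 in SW480. On chromosome 12, the SW620 runs from 79270845 to 79401224 and from 92092115 to 92240850 had 5 and 6 in SW620. SW480 had 0 and 1 there. The runs on chromosomes 11 and 8 had 1 and 2 in SW620, against 1 and 1 in SW480. In the opposite direction the run with the most regions, 80 over 436 kb on chromosome 2 from 220554270 to 220989834, was called in SW480, with 2 H3K27ac regions in either line. An SW480 run of 42 regions on chromosome 10, from 97073452 to 97317314, had 13 H3K27ac regions in SW480 and 3 in SW620. More H3K27ac in the line that had the run was thus not particular to SEMA3A. Since the genes were picked for an SW620 excess in this stretch, the place of SEMA3A in this order is a description.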
